A study of Arabidopsis thaliana with 4 samples.

Results

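Xylem differentiation and secondary wall genes were followed in root tips of Arabidopsis thaliana by RNA sequencing. The group consisted of 10 loci given by name, of the 33602 loci in the count files: the transcription factor genes VND6, VND7, MYB46 and MYB83, the cellulose synthase genes CESA4, CESA7 and CESA8, the cysteine protease genes XCP1 and XCP2, and ACL5. All 10 loci were found. Root tips came from seedlings 4 days after germination, grown on agar medium with sucrose and either 1 mM phosphate (high) or 5 µM phosphate (low). The plants were Col-0, the reference accession, or med16-2, a mutant line labelled as of the same Col 0 ecotype in the gene for Mediator subunit 16, and both were carried through both media. Mediator is the large complex through which transcription factors act on RNA polymerase II. Neither the lesion in med16-2 nor the number of seedlings per library is stated in the labels.

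Each of the 4 groups had 1 library, so differences between libraries lack a replicate check and carry no p-value. Phosphate is written Pi below, and values in 4s are ordered Col-0 high Pi, Col-0 low Pi, med16-2 high Pi, med16-2 low Pi. Gene counts ran from 10079345 to 15696333 per library. MED16 (AT4G04920), the check of the labels, had 420 and 747 counts in the Col-0 libraries at high and low Pi against 56 and 48 in med16-2. The med16-2 low Pi library stood apart in its make-up, with 42.1% of its listed reads assigned to no gene against 9.89% to 12.5% in the other 3. Most of these were listed as not uniquely aligned, 36.6% against 6.65% to 9.27%. Loci of rRNA and organelles held 2.42% of its gene counts, against 0.333% to 1.36%. The comparison of genotypes at high Pi does not use this library. Levels are in CPM, counts scaled by the effective size of the library, and intervals are exact 95% intervals that cover counting error only. A gene was called higher or lower where the ratio of 2 libraries was at least 2-fold and its interval excluded equality (the size rule), and 18692 loci whose mean reached 1 CPM were compared.

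Xylem vessels form when cells of the vascular cylinder are set to that fate by NAC transcription factors of the VND group, lay down a thick patterned secondary wall of cellulose, xylan and lignin, and then die and empty themselves. VND6 acts mainly in metaxylem and VND7 in protoxylem, and both switch on MYB46 and MYB83, which act redundantly as the next switches towards wall genes. CESA4, CESA7 and CESA8 are the catalytic subunits of the cellulose synthase complex of secondary walls, and each is needed for that complex. XCP1 and XCP2 are papain-type proteases that digest the vessel's contents, and ACL5 makes thermospermine, a polyamine that holds back xylem differentiation.

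Of the 10 genes, 0 met the size rule in any of the 4 library comparisons, against 7.06% and 7.18% of all loci for genotype at high and low Pi and 4.73% and 3.29% for Pi in Col-0 and med16-2. The genes of the finished vessel, CESA4, CESA7, CESA8, XCP1 and XCP2, had their lowest level in med16-2 at high Pi, 1.33-fold to 1.64-fold below Col-0 at high Pi, with intervals that excluded equality. In root tips, fewer cells of a type and less RNA per cell cannot be told apart. In Col-0 the levels at low and high Pi were close, with ratios of at most 1.11-fold among the 9 genes that passed the filter. The switches MYB46 and MYB83 had the smallest highest over lowest ratios over the 4 libraries, 1.22 and 1.23, but at only 31 to 78 counts per library. Their genotype intervals at low Pi reached 1.79-fold and 1.87-fold lower in med16-2, so they cannot be ranked as steadier than the other genes.

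Per length of transcript, levels were higher for the protease and cellulose genes than for the transcription factor genes. Averaged over the 4 libraries, XCP1 stood at 88.4 and XCP2 at 73.0 CPM per kb, above 92.4% and 90.8% of the loci compared. CESA4, CESA7 and CESA8 followed at 16.1, 12.7 and 9.73 CPM per kb, around the median of 11.3 CPM per kb of all loci compared, and ACL5 at 8.48. The transcription factor genes were the least abundant, with MYB46 at 3.59, VND7 and MYB83 both at 1.80, and VND6 at 0.277 CPM per kb. VND6 was the 1 gene that did not pass the filter of 1 CPM.

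**Figure D1:**
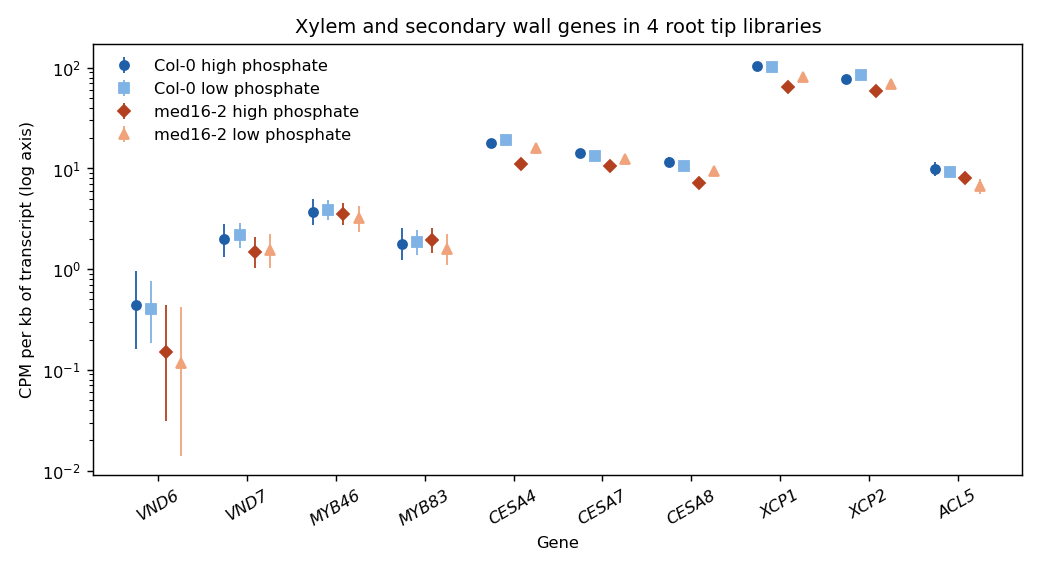
Levels of the 10 genes in each of the 4 libraries, as CPM per kb of the longest annotated transcript on a log axis; points are single libraries and bars are exact 95% counting intervals. The 5 vessel wall and protease genes CESA4, CESA7, CESA8, XCP1 and XCP2 have their lowest point in med16-2 at high Pi, while the bars of the transcription factor genes overlap across libraries.

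VND6 (AT5G62380, chromosome 5, 25050152 to 25052054, TAIR10.1) had 6, 9, 3 and 2 counts. The med16-2 counts lie at or under the floor of 3 counts, and the log2 ratio of genotypes at high Pi, -1.44, had an interval from -4.17 to 0.68, so a difference was not detectable at this depth. VND6 also shares 77 annotated bases with AT5G62390 on the opposite strand, which had 2227 to 4138 counts. VND7 (AT1G71930, chromosome 1, 27074702 to 27077991) had 29, 52, 32 and 28 counts in the same order, or 2.94, 3.26, 2.22 and 2.28 CPM. Both med16-2 libraries lay under both Col-0 libraries, with log2 ratios of -0.41 (-1.18 to 0.37) at high and -0.50 (-1.23 to 0.18) at low Pi, and both intervals included equality.

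MYB46 (AT5G12870, chromosome 5, 4062666 to 4065075) stood at 4.67, 4.89, 4.45 and 4.00 CPM. MYB83 (AT3G08500, chromosome 3, 2576444 to 2578276) stood at 3.15, 3.26, 3.40 and 2.77 CPM in that order. No ordering of the 4 libraries held beyond counting error for either gene. MYB46 made up 59.7%, 60.0%, 56.6% and 59.0% of the counts of the pair, with wide exact binomial intervals (47.9% to 70.8% in Col-0 at high Pi, the widest of the 4). With 31 to 78 counts per library, the precision is low, and the log2 genotype ratio of MYB46 at high Pi was -0.08 (-0.64 to 0.51).

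CESA4 (AT5G44030, chromosome 5, 17714390 to 17719723) had 635, 1116, 583 and 717 counts. Its levels were 64.5 CPM, 69.9 CPM, 40.5 CPM and 58.5 CPM, and the med16-2 high Pi library was the low one. Between genotypes the ratio was 1.59-fold lower in med16-2 (1.42 to 1.78) at high Pi and 1.20-fold lower (1.09 to 1.32) at low Pi. Neighbours in the order Col-0 low, Col-0 high, med16-2 low had overlapping intervals, and the interval of med16-2 at high Pi (37.3 to 43.9 CPM) lay below the rest.

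CESA7 (AT5G17420, chromosome 5, 5736630 to 5741500) stood at 48.2, 45.7, 36.3 and 42.4 CPM in the same order of libraries. Its genotype ratio was 1.33-fold lower in med16-2 (1.17 to 1.51) at high Pi, while at low Pi the log2 ratio was -0.11 (-0.27 to 0.06). CESA8 (AT4G18780, chromosome 4, 10312624 to 10316886) stood at 39.2, 35.3, 23.8 and 32.0 CPM, with a genotype ratio at high Pi of 1.64-fold lower (1.42 to 1.91), the largest among the 9 measured genes in that comparison. At low Pi its log2 ratio was -0.14 (-0.33 to 0.05). For both genes the med16-2 high Pi library was the lowest of the 4. The CESA7 intervals of the other 3 libraries overlapped, while those of CESA8 in Col-0 at high Pi (35.4 to 43.3 CPM) and med16-2 at low Pi (28.9 to 35.3 CPM) did not. The 3 genes are annotated with 17 to 481 bases shared with neighbouring loci, in libraries that do not keep strand. The longest of these stretches joins CESA8 to AT4G18770, which had 0 to 2 counts per library. Other neighbours were counted more. CESA4 shares 17 bases with AT5G44020 (6325 to 8195 counts), and CESA7 shares 66 with AT5G17410 (263 to 433 counts).

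Because the 3 subunits work in 1 complex, their balance was read within each library, where scaling has no effect. CESA4 gave 42.4% of the counts of the 3 genes (39.9% to 45.0%) in Col-0 at high Pi and 46.3% (44.3% to 48.3%) at low Pi. In med16-2 it gave 40.2% (37.7% to 42.8%) at high and 44.0% (41.6% to 46.5%) at low Pi. Its share was the larger at low Pi in both genotypes, with exact binomial intervals that overlap within each genotype. CESA7 gave its largest share, 36.1% (33.6% to 38.6%), in med16-2 at high Pi, against 31.8%, 30.3% and 31.9% in the other libraries, and CESA8 stayed between 23.4% and 25.8%.

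XCP1 (AT4G35350, chromosome 4, 16810482 to 16812077) stood at 140.0, 137, 86.8 and 109.6 CPM. The Col-0 libraries did not differ beyond counting error, and both med16-2 libraries lay below them and apart from each other. The genotype ratio was 1.61-fold lower in med16-2 (1.49 to 1.74) at high Pi and 1.25-fold lower (1.17 to 1.34) at low Pi. XCP2 (AT1G20850, chromosome 1, 7252111 to 7253747) stood at 108, 117, 81.3 and 96.2 CPM, with ratios of 1.33-fold lower (1.22 to 1.44) and 1.22-fold lower (1.13 to 1.31) at high and low Pi. XCP1 gave 56.5% of the counts of the pair (54.5% to 58.5%) in Col-0 and 51.7% (49.6% to 53.7%) in med16-2 at high Pi, 2 intervals that do not overlap. At low Pi the shares were 53.9% (52.4% to 55.5%) and 53.2% (51.3% to 55.2%).

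**Figure D2:**
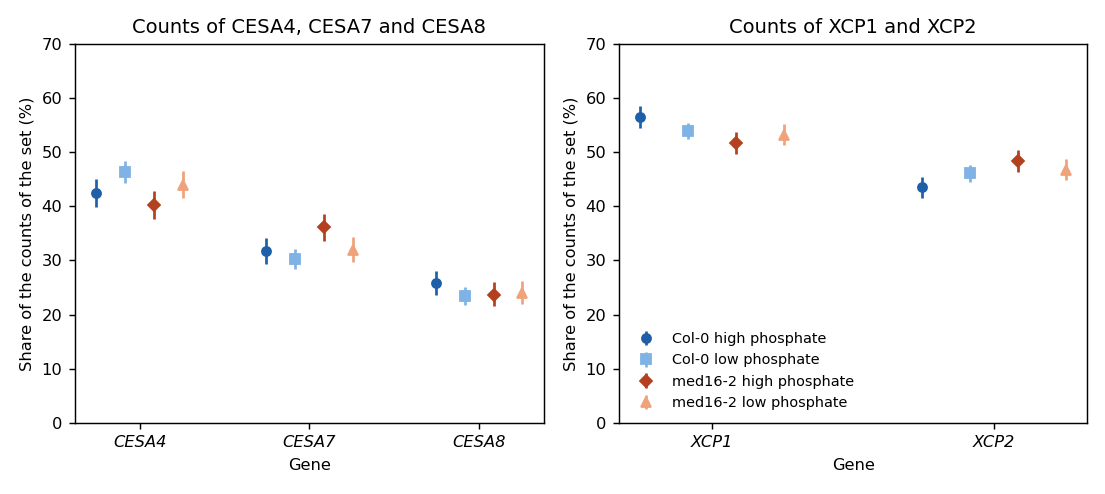
Share in percent of each gene in the summed counts of CESA4, CESA7 and CESA8 (left) and of XCP1 and XCP2 (right), by library; points are single libraries and bars are exact binomial 95% intervals. CESA4 shares are 40.2% to 46.3%, and XCP1 shares are 56.5% in Col-0 and 51.7% in med16-2 at high Pi.

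ACL5 (AT5G19530, chromosome 5, 6588771 to 6591363) had 160, 243, 190 and 134 counts, or 16.2, 15.2, 13.2 and 10.9 CPM. It was the 1 well-counted gene with its lowest level in med16-2 at low Pi. Its genotype ratio was 1.23-fold lower in med16-2 at high Pi, with an interval that included equality (log2 -0.61 to 0.01), and 1.39-fold lower (1.12 to 1.73) at low Pi. ACL5 shares 196 annotated bases with AT5G19520, a gene on the opposite strand with 1654 to 3603 counts, so reads of that stretch cannot be assigned to ACL5 with certainty.

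The comparison of med16-2 with Col-0 asks which transcripts differ with MED16. At high Pi 0 of the 9 measured genes were called, where 0.712% of all loci compared were called higher and 6.34% lower. Of the 9, 8 had log2 ratios below 0, from -0.72 for CESA8 to 0.10 for MYB83, with a median of -0.41 against 0.02 over all loci. The intervals of CESA4, CESA7, CESA8, XCP1 and XCP2 lay below equality, 5 of 9 genes against 23.4% of all loci, a rule without a minimum fold that was added after the values had been seen. At low Pi 0 of 9 were called, against 1.04% of loci called higher and 6.14% lower. All 9 log2 ratios were then below 0, from -0.50 for VND7 to -0.11 for CESA7, with a median of -0.29 against 0.01 over all loci, and the intervals of CESA4, XCP1, XCP2 and ACL5 lay below equality, 4 of 9 against 24.7% of loci. No interval of the 9 genes lay above equality in either genotype comparison, against 19.6% of loci at high and 22.4% at low Pi. Intervals are narrower the more a gene is counted.

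**Figure D3:**
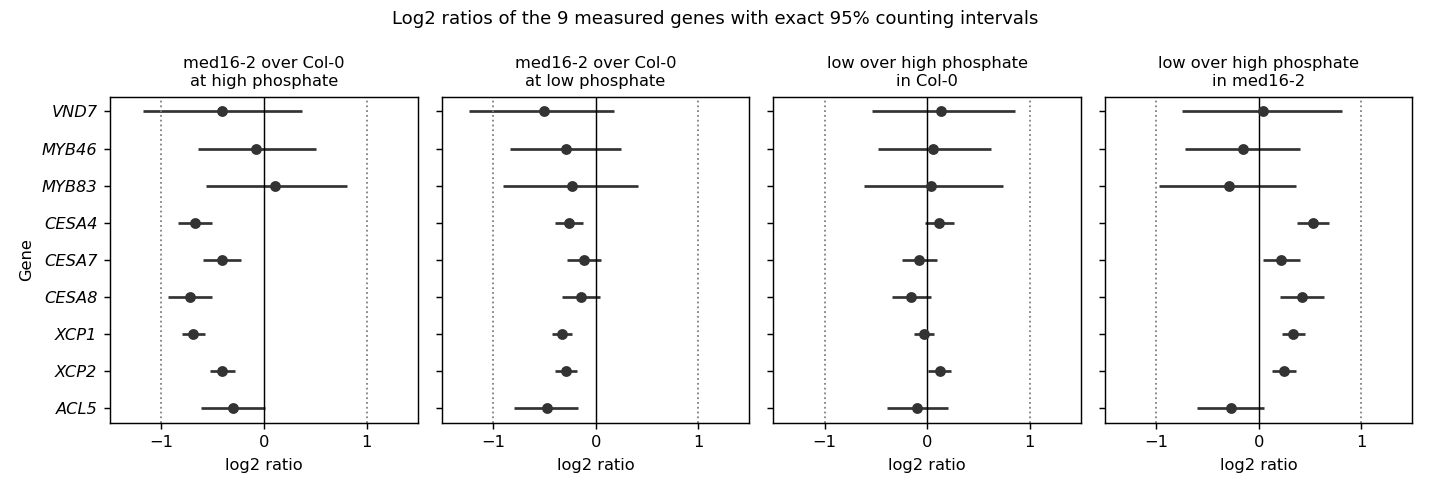
Log2 ratios of the 9 measured genes in the 4 library comparisons; points are ratios of 2 libraries, bars are exact 95% counting intervals, the solid line is equality and dotted lines mark 2-fold. No point reaches a dotted line, and at high Pi CESA4, CESA7, CESA8, XCP1 and XCP2 lie 0.41 to 0.72 below 0.

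Both genotype comparisons were joined in an additive model of genotype and phosphate, fitted with edgeR over all 18692 loci. It has 2 libraries per level of each factor and 1 residual degree of freedom, and counts any dependence of the genotype effect on phosphate as spread. For genotype, 0 of the 9 genes passed an adjusted p of 0.05 in edgeR's quasi-likelihood test, where 7.31% of loci were called, 0.792% higher and 6.52% lower in med16-2. All 9 estimates were below 0, and 5 genes had an unadjusted p under 0.05, against 27.8% of all loci. XCP1 came nearest, with a log2 estimate of -0.51 and an adjusted p of 0.0579 by edgeR, which became 0.0349 with total counts as the scale and 0.0349 with no filter. XCP2 and CESA4 had estimates of -0.35 and -0.46 with adjusted p-values of 0.0721 and 0.0835 by edgeR. By the same test VND7 stood at -0.46 with an adjusted p of 0.348, and MYB46 and MYB83 at -0.18 and -0.06 with 0.640 and 0.904.

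The comparison of low with high Pi asks what phosphate supply does to the same genes. In Col-0, 0 of 9 genes were called, against 3.24% of loci called higher and 1.49% lower, and log2 ratios ran from -0.15 for CESA8 to 0.14 for VND7. XCP2 was the 1 gene whose interval lay above equality, at 1.09-fold (1.01 to 1.18), against 16.9% of all loci, and 0 of 9 lay below it, against 20.9%. In med16-2, where the low Pi library is the one with 42.1% of reads assigned to no gene, 0 of 9 genes were called as well, against 2.26% of loci called higher and 1.03% lower. CESA4 stood 1.44-fold (1.29 to 1.61), CESA8 1.34-fold (1.16 to 1.56), XCP1 1.26-fold (1.17 to 1.36), XCP2 1.18-fold (1.09 to 1.29) and CESA7 1.17-fold (1.03 to 1.32) above their high Pi levels. These 5 of 9 genes had intervals above equality, against 13.9% of loci, and 0 of 9 lay below it, against 14.4%. VND7, MYB46, MYB83 and ACL5 had intervals that included equality. The part of that library's make-up in these ratios was not tested.

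The genotype comparison at high Pi and the phosphate comparison in med16-2 share the med16-2 high Pi library, in which the wall and protease genes are lowest, and are not independent. The difference between the phosphate log2 ratios of med16-2 and Col-0 was 0.58 for CESA8 (0.30 to 0.86), 0.41 for CESA4 (0.20 to 0.62), 0.36 for XCP1 (0.22 to 0.51) and 0.30 for CESA7 (0.06 to 0.54). It was 0.12 for XCP2 (-0.04 to 0.28). None of the 9 differences reached 2-fold, where 4.46% of loci were called, 2.3% higher and 2.16% lower, and 4 of 9 intervals lay above 0, against 15.4% of loci, and 0 of 9 below, against 10.6%. In the additive model 0 of 9 genes passed for phosphate, against 0.968% of loci called, 0.781% higher and 0.187% lower. The smallest adjusted p by edgeR's quasi-likelihood test was 0.356 for CESA4, and 1 of the 9 had an unadjusted p under 0.05, against 13.4% of loci. DESeq2 called 0 of the 9 for either factor.

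**Figure D4:**
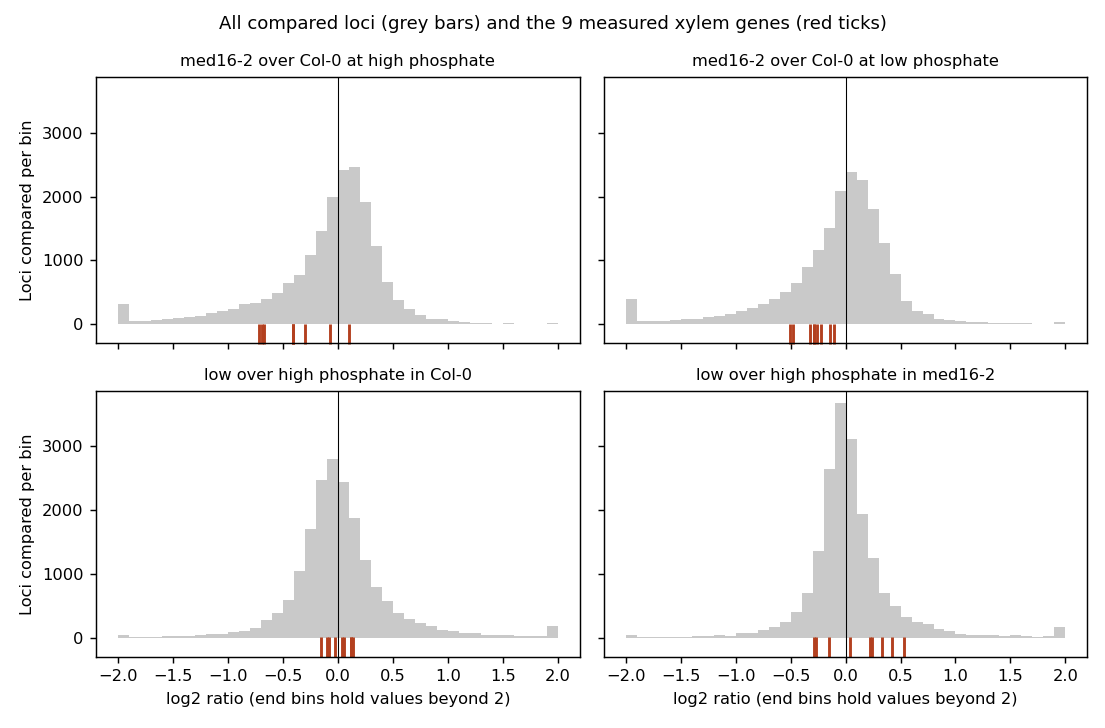
Distribution of log2 ratios of the 18692 loci compared (grey bars, number of loci per 0.1 bin) with the 9 measured xylem genes as red ticks, for the 4 library comparisons. In the genotype panels 8 of 9 ticks lie below 0 at high Pi, with MYB83 at 0.10, and all 9 at low Pi. Their medians are -0.41 and -0.29, and for phosphate in Col-0 the ticks lie around 0.

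Promoters were read because the cellulose and protease genes shared their lowest library. The 250 bases before the annotated start of each gene (TAIR10.1, RefSeq) were searched on both strands for TERE, the promoter element of genes switched on in forming vessel elements, and for the MYB46 and MYB83 binding element SMRE, with the letters ACCNANN, where the fourth base is A or T, the sixth is A or C and the last is C or T (8 forms). TERE was found in 2 of the 10 promoters, those of CESA4 and XCP1, and in 0.378% of 26711 promoters of protein-coding genes. SMRE was found in 3 of 10, those of VND7, MYB83 and CESA4, and in 29.4% of all promoters. With 1000 bases TERE was still in 2 of 10, against 1.46% of promoters, and SMRE in 8 of 10, against 73.2%. CESA7, CESA8 and XCP2, which shared the lowest library with CESA4 and XCP1, held no TERE in either window. TERE is by definition an element of genes of this kind, so its presence in such genes is not an independent result. Its relation to the levels was not tested. The sequences of the 3 measured genes with the largest genotype ratios at high Pi are shown 5′ to 3′ along the gene's strand, ending at the base before its start, with TERE and SMRE matches in capitals. They are CESA4 (chr5:17714140-17714389, plus strand), XCP1 (chr4:16810232-16810481, plus strand) and CESA8 (chr4:10316887-10317136, minus strand).
CESA4: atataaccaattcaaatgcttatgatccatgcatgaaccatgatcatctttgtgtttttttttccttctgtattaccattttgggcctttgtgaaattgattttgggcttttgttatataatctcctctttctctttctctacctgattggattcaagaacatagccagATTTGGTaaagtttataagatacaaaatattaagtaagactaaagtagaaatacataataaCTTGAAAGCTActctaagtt
XCP1: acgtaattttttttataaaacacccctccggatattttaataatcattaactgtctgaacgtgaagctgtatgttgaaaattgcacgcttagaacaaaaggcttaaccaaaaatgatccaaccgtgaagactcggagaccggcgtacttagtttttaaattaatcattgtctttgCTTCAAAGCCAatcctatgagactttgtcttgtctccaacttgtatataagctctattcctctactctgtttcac
CESA8: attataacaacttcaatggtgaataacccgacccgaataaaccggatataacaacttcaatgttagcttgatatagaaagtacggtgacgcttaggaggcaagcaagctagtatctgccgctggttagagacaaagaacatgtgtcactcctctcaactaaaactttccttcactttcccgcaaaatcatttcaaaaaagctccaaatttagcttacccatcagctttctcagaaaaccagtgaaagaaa
TERE has the letters of the longer capital run in CESA4, with any base at the fourth and the tenth place. In CESA4 the capitals mark an SMRE match on the opposite strand starting 81 bases before the start and TERE starting 20 bases before it, and in XCP1 they mark TERE starting 75 bases before it. CESA8 holds neither set of letters in this window.

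Other genes of the pathway were read from 13 lists of 141 loci, 122 of which passed the filter. Among 9 measured regulators of xylem fate at high Pi, med16-2 was lower for 2 and higher for 0, and the median log2 ratio was -0.67. Over all loci 6.34% were called lower and 0.712% higher in that comparison. VNI2 (AT5G13180), whose NAC protein binds VND7 and represses its targets, had 1110 counts against 785 and was 2.07-fold lower. LBD18 had 21 and 15 counts and was 2.03-fold lower, a call lost with total counts as the scale (log2 -0.97) and with a pseudocount of 5 (-0.93). None of VND1 to VND5 passed the rule. VND5 stood at a log2 ratio of -0.995 (-1.77 to -0.25). VND1, whose ratio is the list's median, had 25 and 23 counts and an interval from -1.55 to 0.21. VND4 stood at 0.02 (-0.37 to 0.43), VND2 at 0.105 (-0.66 to 0.92) and VND3 at 0.30 (-0.25 to 0.89). Of the 9 intervals 3 lay below equality and 0 above, against 23.4% and 19.6% of all loci. At low Pi 0 of 9 were called, against 7.18% of all loci, with VNI2 at -0.69. Of the switches of fibre walls, NST2 and SND1 are listed at 0 in all 4 libraries, and NST1 had 1 to 9 counts.

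Among 13 measured MYB and other factors downstream of the switches, 3 were lower in med16-2 at high Pi and 5 at low Pi, with 0 higher in either, where 6.34% and 6.14% of all loci were lower and 0.712% and 1.04% higher. MYB4 (AT4G38620), a repressor of phenylpropanoid genes, had 318 and 834 counts in the Col-0 libraries at high and low Pi against 64 and 98 in med16-2, 7.22-fold and 6.51-fold lower. Its relative MYB7 was 3.31-fold and 2.97-fold lower, and MYB52 3.85-fold and 3.57-fold lower at 5 to 39 counts per library. MYB32, another relative of MYB4, and MYB54 joined them at low Pi, 2.35-fold and 2.95-fold lower. MYB4, MYB7 and MYB32 are known as repressors rather than activators. MYB46 and MYB83 themselves had genotype ratios of at most 1.22-fold. For phosphate, MYB54 was higher in Col-0 at 8 and 36 counts, and MYB20 had a difference of phosphate log2 ratios of -1.24 between genotypes. Both fell short with a pseudocount of 5 (0.96 and -0.91). MYB20, MYB32, MYB52 and MYB54 were not compared at a filter of 5 CPM.

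Genes for the other polymers of the secondary wall were read next. Of 15 xylan genes, 1 was lower in med16-2 at high Pi and 2 at low Pi, with 0 higher. Over all loci 6.34% and 6.14% were called lower and 0.712% and 1.04% higher. GUX2, a glucuronosyltransferase of xylan, was 2.04-fold and 2.01-fold lower, and IRX15L was 2.00-fold lower at low Pi. All 3 calls sit at the 2-fold limit. GUX2 fell short at high Pi with total counts (log2 -0.98) and at low Pi with a pseudocount of 5 (-0.98), as did IRX15L with the latter (-0.96). The median was -0.48 at high and -0.17 at low Pi, and IRX9 of the xylan backbone stood at -0.76 (-1.04 to -0.47) and -0.17 (-0.42 to 0.07). At high Pi 10 of the 15 intervals lay below equality and 0 above, against 23.4% and 19.6% of all loci. At low Pi 5 lay below and 3 above, against 24.7% and 22.4% of all loci. Those above were IRX10L at 0.30 (0.17 to 0.43), F8H at 0.325 (0.17 to 0.48) and GXMT1 at 0.13 (0.05 to 0.21). The 7 genes of COBL4, CTL2, 3 laccases and 2 peroxidases had 0 calls in either genotype comparison. All 7 intervals lay below equality at high Pi, with a median of -0.56, and 5 of 7 at low Pi, with a median of -0.43, against 23.4% and 24.7% of all loci. CTL2, a chitinase-like protein of secondary walls, stood at -0.80 (-1.03 to -0.575), and the laccase LAC17, which helps to polymerise lignin, at -0.575 (-0.81 to -0.34), both at high Pi.

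Of 4 genes of vessel cell death, the nuclease gene BFN1 was 2.44-fold lower in med16-2 at low Pi, with 123 and 312 counts in the Col-0 libraries at high and low Pi against 118 and 98. Over all loci 6.14% were called lower at low Pi. At high Pi 0 of 4 were called, against 7.06% of all loci. The metacaspase gene MC9 stood at -0.38 (-0.52 to -0.25) and -0.83 (-0.96 to -0.70) in the genotype comparisons at high and low Pi. In each of these comparisons 3 of the 4 intervals lay below equality, against 23.4% of all loci at high and 24.7% at low Pi. XSP1 went the other way, at 0.26 (0.02 to 0.50) at high Pi and 0.06 (-0.15 to 0.27) at low Pi. The 8 genes of wall patterning had 0 calls in any of the 4 comparisons. Of all loci, 7.06% and 7.18% were called between genotypes at high and low Pi, and 4.73% and 3.29% for Pi in Col-0 and med16-2. Wall patterning intervals went both ways between genotypes. At high Pi 3 lay below equality and 2 above, against 23.4% and 19.6% of all loci. At low Pi 3 lay below and 3 above, against 24.7% and 22.4%.

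Genes that set up the vascular tissue came next. Of 14 measured genes of the procambium and xylem axis, 0 were called between genotypes at high Pi, against 7.06% of all loci. At low Pi 1 was lower in med16-2, against 6.14%. For phosphate, 2 were higher at low Pi in Col-0 and 0 in med16-2, against 3.24% and 2.26%. CLE41, which encodes the phloem-made peptide that keeps procambium cells from becoming xylem, had 41 and 152 counts in the Col-0 libraries at high and low Pi and 50 and 41 in med16-2. It was 2.27-fold higher at low Pi in Col-0 and 2.82-fold lower in med16-2 at low Pi, and the difference of phosphate log2 ratios was -1.23 (-2.005 to -0.46). AHP6, a cytokinin signalling inhibitor of the protoxylem position, had 10, 40, 18 and 16 counts and was 2.38-fold higher at low Pi in Col-0. BUD2, the S-adenosylmethionine decarboxylase gene tied to the thermospermine pathway of ACL5, had 16, 50, 34 and 24 counts, a difference of phosphate log2 ratios of -1.18 (-2.28 to -0.08). In the 4 library comparisons 0 of the 5 measured genes of the polyamine list were called, against 3.29% to 7.18% of all loci. The calls for AHP6 and BUD2 rest on 10 to 50 counts per library, and both fell short with a pseudocount of 5 (log2 0.89 and -0.89) and were not compared at 5 CPM.

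**Figure D5:**
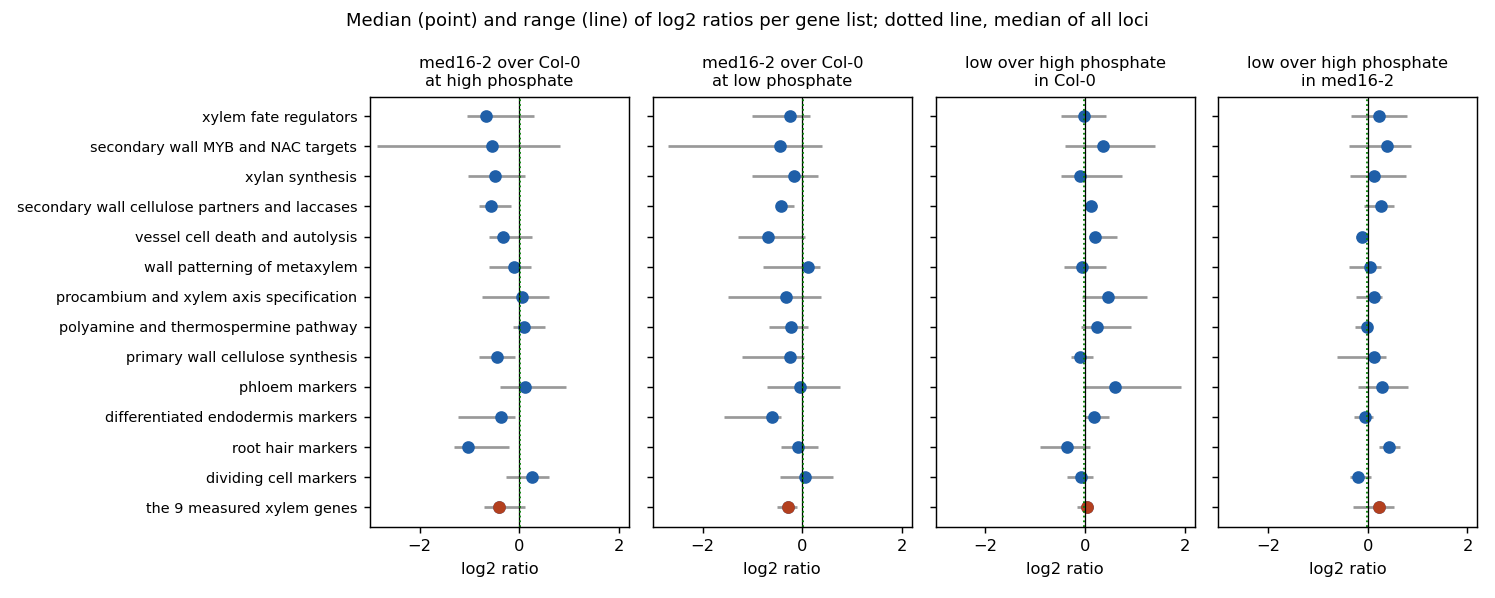
Median (point) and range (line) of log2 ratios of measured genes in 13 pathway and marker lists and, in red, of the 9 measured xylem genes, for the 4 library comparisons; the dotted line is the median of all loci compared. At high Pi the lists of xylem fate regulators, wall factors, xylan genes and cellulose partners lie at medians from -0.67 to -0.48, and dividing cell markers at 0.26. Other vascular lists lie closer to 0 or above it. Vessel cell death lies at -0.32, wall patterning at -0.12, procambium and xylem axis at 0.05 and polyamine genes at 0.10. Root hair markers lie lowest, at -1.02, and primary wall genes and endodermis markers lie at -0.45 and -0.36.

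Markers of other tissues also differed between the high Pi libraries. Of all loci compared there, 6.34% were called lower in med16-2 and 0.712% higher. Their intervals lay below equality for 23.4% and above it for 19.6%. At high Pi the 9 root hair markers had 5 genes lower in med16-2 and a median of -1.02. With total counts as the scale, 1 of the 5 calls was left, RHS12, while COW1, EXPA18, PRP3 and RSL4 stood just short of 2-fold (log2 -0.9994, -0.9993, -0.9885 and -0.9772). The markers' summed level was 1448 CPM in Col-0 and 757 CPM in med16-2. The 7 measured markers of the differentiated endodermis had 1 gene lower, CASP5, and a median of -0.36, with summed levels of 629 and 486 CPM. The 10 genes of primary wall cellulose synthesis, which all growing cells use, had 0 calls, 9 intervals below equality and a median of -0.45. The 10 dividing cell markers had 0 calls, 6 intervals above equality and a median of 0.26, with summed levels of 285 and 324 CPM, and the 11 phloem markers 0 calls and a median of 0.12. No phloem, endodermis, root hair or dividing cell marker was at 0 in any library. The part of tissue make-up in the genotype ratios of the xylem genes was not tested. Against primary wall synthases, the summed level per length of CESA4, CESA7 and CESA8 was 9.07% of that of CESA1, CESA3 and CESA6 in Col-0 at high Pi, 9.71% in Col-0 at low Pi, 7.94% in med16-2 at high Pi and 9.50% in med16-2 at low Pi.

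At low Pi, root hair markers had 0 calls between genotypes and a median of -0.09, with summed levels of 1119 and 1052 CPM in Col-0 and med16-2. Over all loci 6.14% were called lower and 1.04% higher, and 24.7% had intervals below equality. Endodermis markers had 1 gene lower, CASP5 at 2.96-fold, all 7 intervals below equality and a median of -0.61. Their summed levels were 701 and 471 CPM. Dividing cell markers had a median of 0.06, with summed levels of 267 and 291 CPM, and phloem markers of -0.05, with 162 and 171 CPM, both with 0 calls. Primary wall genes had 0 calls, 8 of 10 intervals below equality and a median of -0.24. In the Pi comparisons of these marker lists 1 gene was called, the phloem gene NEN4, 3.83-fold higher at low Pi in Col-0, against 3.24% of all loci. The difference of Pi log2 ratios passed for RSL4 of root hairs at 1.31 and NAC86 of phloem at -1.01, against 4.46% of all loci. NEN4 and NAC86 were not compared at 5 CPM, and NAC86 stood at -0.79 with a pseudocount of 5. The summed level of the 10 xylem genes was 427 CPM and 433 CPM in Col-0 at high and low Pi and 292 CPM and 359 CPM in med16-2.

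Over the 4 libraries, the genes whose profile was most like the mean profile of CESA4, CESA7 and CESA8 were looked for among the 12787 loci whose mean reached 10 CPM. The measure was the root-mean-square distance of log2 levels, each centred on its own mean. XCP1 and XCP2 lay at distances of 0.06 and 0.08, with 58 and 109 loci closer to the mean profile than they were. CESA8, CESA4 and CESA7, whose own values make up that profile, lay at 0.05, 0.08 and 0.09, with 19, 124 and 146 loci closer. The nearest loci outside the lists were CRK28 and PG1, both at 0.01, followed by AT4G21740, AT2G26600, AT4G27595 and AT5G54040. CRK28 stood at 12.5, 12.2, 8.41 and 10.8 CPM, and PG1 at 49.7, 48.6, 33.1 and 42.6 CPM. With 4 libraries many loci reach such distances. VND7 lay at 0.14, with 735 loci closer. ACL5, MYB46 and MYB83 were farther off, with 3624, 2948 and 6535 loci closer. VND7, MYB46 and MYB83 have means under 10 CPM, so their distances carry more counting error than those of the loci they are ranked among.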

How the data were processed

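The authors deposited 1 file of raw read counts per library, whole numbers per locus, from mRNA libraries that do not keep strand, made from 5 µg of total RNA per the labels' protocols. The build was TAIR10 and the tools named are HTSeq 0.6.0, TopHat2 2.0.9 and Trimmomatic 0.35, per the submitters' processing notes, which name no settings. Lines naming no gene took 12.5%, 9.89%, 10.1% and 42.1% of listed reads in Col-0 high, Col-0 low, med16-2 high and med16-2 low phosphate and stayed out of library sizes. Counts were scaled with edgeR 4.0.16 (TMM) in R 4.3.3. Log2 ratios used counts plus 0.5; intervals were exact (Clopper-Pearson on the share of 2 libraries' counts), and normal for differences of ratios. The additive model was edgeR's quasi-likelihood test with Benjamini-Hochberg adjustment over 18692 loci, with DESeq2 1.42.0 as the alternative. Size rule and model were tested on simulated counts. A count of 0 allows up to 0.188 to 0.305 CPM (3 counts). Names, transcript lengths and promoters came from TAIR10.1, whose coordinates are printed; 141 of 141 list loci matched by locus. Genes named from lists were up to 3 per list and comparison with the largest ratio among those called; MYB54 and MYB32 at low phosphate, genes named without a call and VND4 were chosen after their values were seen. Members and lists were chosen with earlier results of these data known.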

Additional observations from a re-analysis of the deposited data

How the results depend on the processing

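Scaling by total counts or by DESeq2 size factors, leaving rRNA and organelle loci out, a pseudocount of 5, a filter at 5 CPM and no filter were tried. Under all of them 0 of the xylem genes met the size rule in any library comparison, and 5 and 4 genes had genotype intervals below equality at high and low phosphate. The pseudocount does not enter the intervals of library ratios. The filters change no gene's interval and only set which genes are compared, 6 of them at 5 CPM. For the counts of genotype intervals, only the changes of scale were therefore a check. The difference of phosphate ratios had 4 intervals above 0, and 3 with total counts. With total counts 2 genes, not 1, had an interval above equality for phosphate in Col-0, where the median log2 ratio of 0.04 was -0.03 with a pseudocount of 5 and -0.05 at 5 CPM. In the additive model for genotype 1 gene, XCP1, was called in place of 0 with total counts and with no filter. Over all loci that model called 1366 for genotype (148 higher, 1218 lower), 821 with DESeq2 and 1780 with total counts (391 higher, 1389 lower), and for phosphate 181, or 395 with no filter. Calls in the pathway and marker lists fell from 12 to 6 at high phosphate between genotypes with total counts, from 4 to 2 (pseudocount of 5) and 1 (5 CPM) for the Col-0 phosphate comparison, and from 5 to 2 under each of those settings for the difference of phosphate ratios. Of 31 list calls, 13 fell short of the size rule under some setting, 11 were not compared at 5 CPM, 18 met at least 1 of these, and 0 reversed. With the 5 CPM filter all-locus calls (higher, lower) were 33 and 710 in place of 133 and 1186 between genotypes at high phosphate, 57 and 579 in place of 195 and 1147 at low phosphate, 255 and 134 in place of 606 and 278 for the Col-0 phosphate comparison, 181 and 71 in place of 422 and 193 in med16-2, and 205 and 164 in place of 429 and 404 for the difference, which were 357 and 499 with total counts and 388 and 246 with a pseudocount of 5. No paired analysis was possible because each group has 1 library. Leaving out a library leaves the additive model no residual degrees of freedom.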

Other observations

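Part of the thermospermine pathway around ACL5 was listed at 0. SAC51, the transcription factor gene whose translation thermospermine promotes, and 4 further loci of that list are listed at 0 in every library, and SAMDC, an S-adenosylmethionine decarboxylase gene, had at most 1 count. The vascular regulator gene LHW is also listed at 0 throughout. These zeros are listed values and are not read as absent expression. Their reason was not tested, and 5 of 12 loci of that list could be compared.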
